A study of Mus musculus with 9 samples.

Results

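The endoplasmic reticulum (ER) machinery that moves secretory proteins into the ER, folds them, attaches N-linked glycans and exports them was followed in mouse liver through 51 genes, chosen by name from the 56748 rows of the deposited gene table. The 51 genes fall into 8 steps: chaperones, lectin chaperones, disulfide and proline isomerases, sensors and transcription factors of the unfolded protein response (UPR), ER-associated degradation, the translocon with signal peptidase, the oligosaccharyltransferase, and p24 cargo receptors. Bulk RNA sequencing was performed on liver tissue of 9 C57BL/6 mice (C57BL/6J in the series description, wild type, 7 to 8 weeks old when obtained), 3 in each of 3 groups. DSS mice carried chronic colitis induced by 3 cycles of 1.8% (w/v) dextran sulfate sodium (DSS) in drinking water, 1 week on and 1 week of recovery, with 200 μL of sterile water by mouth each day. Indirubin mice received the same DSS cycles and indirubin, a constituent of the herbal preparation indigo naturalis, at 1 g/kg/day by mouth in 200 μL of sterile water. Control mice are labelled water and received 200 μL of sterile water by mouth, and the sources used here do not state separately whether they drank DSS. No mouse received indirubin without DSS, so each effect given for indirubin is one seen on top of colitis. Nothing beyond the replicate number links a library to its own mouse, so p-values measure the spread between these libraries.

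Hepatocytes secrete most plasma proteins, and nearly all of these enter the ER through the Sec61 channel, lose a signal peptide, gain N-glycans and fold with the help of BiP, calreticulin, calnexin and protein disulfide isomerases. When unfolded protein accumulates, the ER membrane sensors IRE1, PERK and ATF6 signal to the nucleus, where spliced XBP1, ATF4 and cleaved ATF6 raise the transcription of chaperones, translocation and degradation genes. Gene counts show the abundance of Xbp1 mRNA but not its splicing, and no protein was measured here.

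The libraries held 6514863 to 7944684 counts each, of which 71.6% to 91.3% came from mitochondrial genes, leaving 569044 to 2132208 counts of nuclear genes. The 51 genes took 0.828%, 0.768% and 0.754% of the nuclear counts in Control-1, -2 and -3. In DSS-1, -2 and -3 they took 1.02%, 0.957% and 1.22%. In Indirubin-1, -2 and -3 they took 0.647%, 0.541% and 0.747%. The 3 groups did not overlap, with DSS highest and Indirubin lowest, but Indirubin-3 (0.747%) lay only just below Control-3 (0.754%). These shares include Magt1 and Tmed5, which held 363 and 202 of the 4288 counts of the 51 genes in Control-3. In Indirubin-3 they held 58 and 143 of 13227. Whether Indirubin stays below Control without them was not tested. In bulk tissue, fewer cells of a type and less RNA per cell cannot be told apart. Between 48 and 51 of the 51 genes had at least 1 count in a library.

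**Figure D1:**
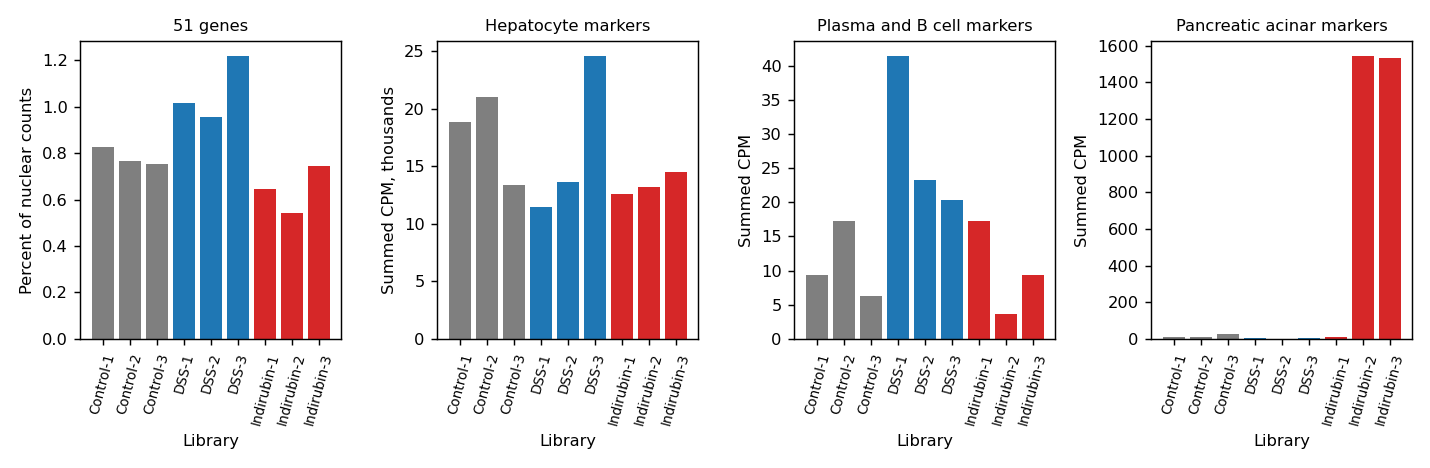
Bars give, for each of the 9 libraries, the percent of nuclear counts taken by the 51 genes and the summed normalized CPM of hepatocyte, plasma and B cell, and pancreatic acinar marker genes. The 51 genes and the plasma and B cell markers both stand highest in the 3 DSS libraries, hepatocyte markers peak in DSS-3, and acinar markers stand at 1546 and 1531 CPM in Indirubin-2 and Indirubin-3.

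Below, the level of a gene in a library is its normalized CPM (counts relative to the library total, scaled over all 9 libraries by the trimmed mean of M values), and the 3 values of a group are given in the order of libraries 1, 2 and 3. Fold changes are log2 differences, first group minus second, each fitted on the 6 libraries of its comparison with edgeR's quasi-likelihood test and the Benjamini-Hochberg adjustment over all genes tested. The 3 comparisons share their groups in pairs and are therefore given side by side and not as independent results.

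Per kb of gene length, the most abundant of the 51 mRNAs over the 9 libraries were P4hb at 59.5 CPM per kb, Calr at 57.8, Hspa5 at 31.8, Pdia3 at 23.4 and Hsp90b1 at 19.2. These are the beta subunit of prolyl 4-hydroxylase that is itself a disulfide isomerase, calreticulin, BiP, a glycoprotein disulfide isomerase and GRP94, the bulk folding factors of the ER lumen. The sensors were scarce, with Ern1 (IRE1) at 0.354, Atf6 at 0.255 and Eif2ak3 (PERK) at 0.0967 CPM per kb. Derl3, a Derlin of ER-associated degradation, was the lowest at 0.0291 CPM per kb, with counts in 2 of 9 libraries. It was too low to be tested in any comparison, and Eif2ak3 was tested only between Indirubin and DSS.

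In DSS against Control, 49 of the 51 genes were tested, and 40 of them were higher and 9 lower, with a median log2 fold change of 0.68 beside 0.01 over all 7482 genes tested. Magt1 and Tmed5 fell, and they were the only ones of the 49 at an adjusted p under 0.05, where 0.495% of all genes were called lower and 0.214% higher. Both calls were lost in each of the 6 fits that left out 1 library. None of the 49 rose by edgeR's quasi-likelihood test as run here. Of them 1, Ssr4, was called higher by DESeq2's Wald test, beside 0.735% of all genes tested, and by edgeR with 2 other filters on low counts, given with its values. At an unadjusted p under 0.05, 12 of the 49 were higher and 2 lower, beside 3.48% and 4.05% of all genes tested. The 3 DSS libraries stood above the 3 Control libraries for 13 of the 49 genes and below them for 2, beside 7.91% and 8.21% of all genes tested. Of the 13, Pdia6 and P4hb stood apart on the scale of those 6 libraries but not on that of all 9.

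In Indirubin against DSS, 50 genes were tested, and 43 were lower and 7 higher, with a median log2 fold change of -0.67 beside 0.15 over all 9117 genes tested. No gene of the whole table passed edgeR's quasi-likelihood test at an adjusted p under 0.05 (0% higher and 0% lower), and the smallest adjusted p among the 50 was 0.274, for Fkbp11. DESeq2's Wald test called 2 of the 50, Fkbp11 and Magt1, both lower, beside 27 genes (0.296%) called lower and 53 (0.581%) called higher of all genes tested. At an unadjusted p under 0.05, 16 of the 50 were lower and 0 higher, beside 3.22% and 4.45% of all genes tested. The 3 Indirubin libraries stood below the 3 DSS libraries for 20 of the 50 genes and above them for 1, beside 5.9% and 10.5% of all genes tested.

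In Indirubin against Control, 49 genes were tested, and 28 were lower and 21 higher, with a median log2 fold change of -0.11 beside 0.13 over all 8059 genes tested. Magt1 and Tmed5 fell here as well, beside 0.174% of all genes called lower and 0.062% higher at an adjusted p under 0.05. Of the 6 fits that left out 1 library, Magt1 passed in 1 and Tmed5 in 2. At an unadjusted p under 0.05, 8 of the 49 were lower and 0 higher, beside 6.38% and 7.45% of all genes tested. The 3 Indirubin libraries stood below the 3 Control libraries for 8 genes and above them for 2, Atf6 and Sec61b, beside 9.07% and 12.7% of all genes tested. On the scale of all 9 libraries Sec61b overlapped and Pdia4 lay below by a small margin.

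The direction held under another scaling in 2 of the 3 comparisons and turned in Indirubin against Control. With libraries scaled by their total counts only, in which mitochondrial genes weigh most, 2 of 49 genes were lower in DSS than in Control, 39 of 50 lower in Indirubin than in DSS and 7 of 49 lower in Indirubin than in Control. At unadjusted p-values under 0.05, 27 genes were then higher in DSS than in Control (55.1%, beside 11.3% of all genes tested). In Indirubin against DSS 2 of 50 were lower (4%, beside 1.13%) in place of 16. In Indirubin against Control 3 were lower (6.12%, beside 1.33%) and 12 higher (24.5%, beside 26.2%). The medians became 1.39, -0.48 and 0.89, while the median of all genes tested moved to 0.70, 0.43 and 1.11. Relative to all genes tested, the median of the ER genes was 0.67, -0.82 and -0.24 with the trimmed mean of M values and 0.69, -0.91 and -0.21 with library size only. Without a filter on low counts it was 0.61, -1.50 and -1.002, as the median of all genes tested moved to 0.08, 0.71 and 0.92.

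**Figure D2:**
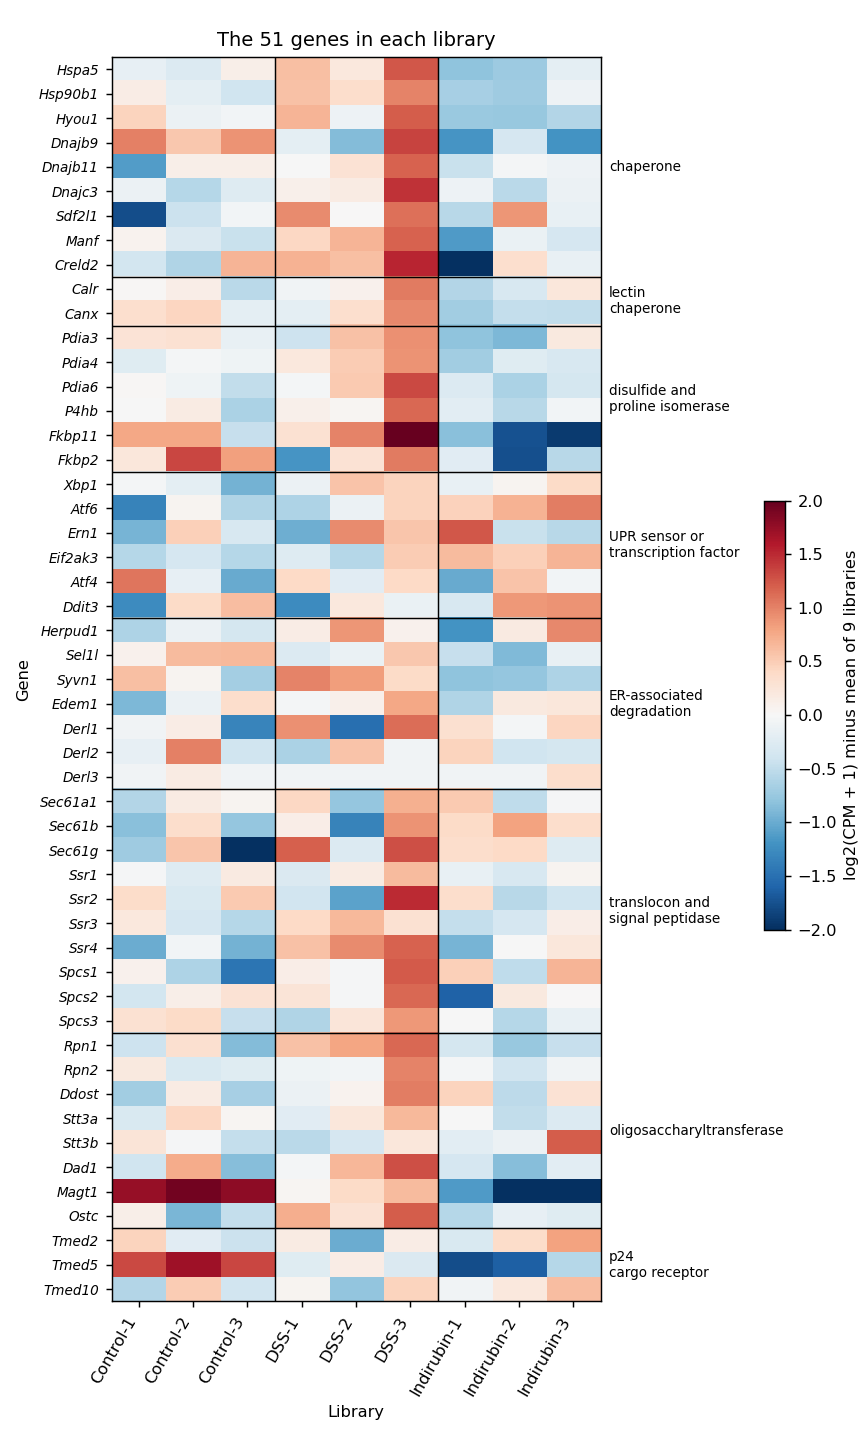
Heat map of the 51 genes (rows, by step) in the 9 libraries (columns). Colour gives log2(CPM + 1) minus the gene's mean over the 9 libraries, from blue (lower) to red (higher), ending at ±2. DSS-3 is red across nearly all steps, while Magt1 and Tmed5 are red in the 3 Control libraries and blue in the Indirubin libraries.

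The DSS libraries were not alike. The median deviation of the genes from their 9-library mean, over 50 genes, was 0.05, 0.19 and 0.98 (log2) in DSS-1, -2 and -3. It was -0.03, 0.08 and -0.39 in Control and -0.34, -0.36 and -0.11 in Indirubin. DSS-3 stood above the other 8 libraries, and it also held the highest summed hepatocyte marker level, 24620 CPM beside 11500 and 13650 in DSS-1 and DSS-2. Alb and Tf made up most of that sum, at 11700 and 8075 CPM in DSS-3. Tf was highest there, while Alb was higher in Control-1 and Control-2, at 11980 and 12830 CPM. DSS-3 also held the most nuclear counts, 2132208, and mitochondrial genes took 72.4% of its counts, beside 85.8% in DSS-1 and 87.7% in DSS-2. That share was also low in Indirubin-2 (71.6%) and Indirubin-3 (77.2%), whose median deviations were below 0. Over all libraries the 10 hepatocyte markers summed to 13400 to 21030 CPM in Control and 12610 to 14530 in Indirubin, and none of the 10 was at 0. These sums join opposite moves of the largest markers. Tf measured 2578, 3009 and 2550 CPM in Control and 2522, 6759 and 7290 CPM in Indirubin. Alb measured 11980, 12830 and 7514 CPM in Control and 7795, 4568 and 5632 CPM in Indirubin. By gene, 7 of the 10 were lower in DSS than in Control (median log2 fold change -0.23), 7 lower in Indirubin than in DSS (-0.36) and 7 lower in Indirubin than in Control (-0.75). Without DSS-3, 16 of the 49 genes were lower in DSS than in Control, the median was 0.30 and 6 were higher at an unadjusted p under 0.05, beside 2.64% of all genes tested. The count also fell to 6 without Control-2 or Control-3 (beside 3.27% and 2.02%), and it reached 16 without DSS-1 (beside 3.11%). Without DSS-3, 37 of 50 were lower in Indirubin than in DSS, the median was -0.36 and 9 were lower at an unadjusted p under 0.05, beside 1.48% of all genes tested. The part of hepatocyte content and of the mitochondrial share in these differences was not tested.

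Plasma cells are rich in the same ER machinery. The 10 plasma and B cell markers summed to 20.3 to 41.5 CPM in DSS, 6.33 to 17.3 in Control and 3.69 to 17.3 in Indirubin, so the DSS libraries stood above both other groups, as did the share of the 51 genes. All 4 plasma and B cell markers that were tested were higher in DSS than in Control (median log2 fold change 1.32), and all 5 tested were lower in Indirubin than in DSS (median -1.47). Single markers overlapped: the immunoglobulin light chain Igkc measured 5.25, 3.875 and 4.63 CPM in Control, 5.93, 11.7 and 11.2 CPM in DSS and 6.79, 1.475 and 2.42 CPM in Indirubin, with Indirubin-1 above DSS-1. Of the 10 markers, 1 (Mzb1, a plasma cell ER protein) had 0 counts in all 9 libraries. The 6 markers of cholangiocytes, the bile duct cells, summed to 8.89 to 13.3 CPM in DSS, above 3.70 to 6.09 in Control and 4.77 to 8.28 in Indirubin. Spp1 made up most of that sum in DSS at 5.097, 11.9 and 6.67 CPM, while Krt19 was highest in Indirubin-3 at 3.28 CPM and Sox9 in Indirubin-2 at 2.95 CPM. Only 1 of the 6 was tested in DSS against Control, and of 2 tested in Indirubin against DSS 1 was higher and 1 lower. Acinar cells of the pancreas, another secretory cell type, left transcripts in Indirubin-2 and Indirubin-3, where 14 markers summed to 1546 and 1531 CPM, against 0 to 24.6 CPM in the other 7 libraries. Without those 2 libraries, which leaves Indirubin-1 alone and assumes that it varies like the other group, 13 genes were lower than in DSS at an unadjusted p under 0.05, beside 1.92% of all genes tested, and the median was -0.98. The part of plasma cell, cholangiocyte or pancreatic RNA in the differences was not tested.

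**Figure D3:**
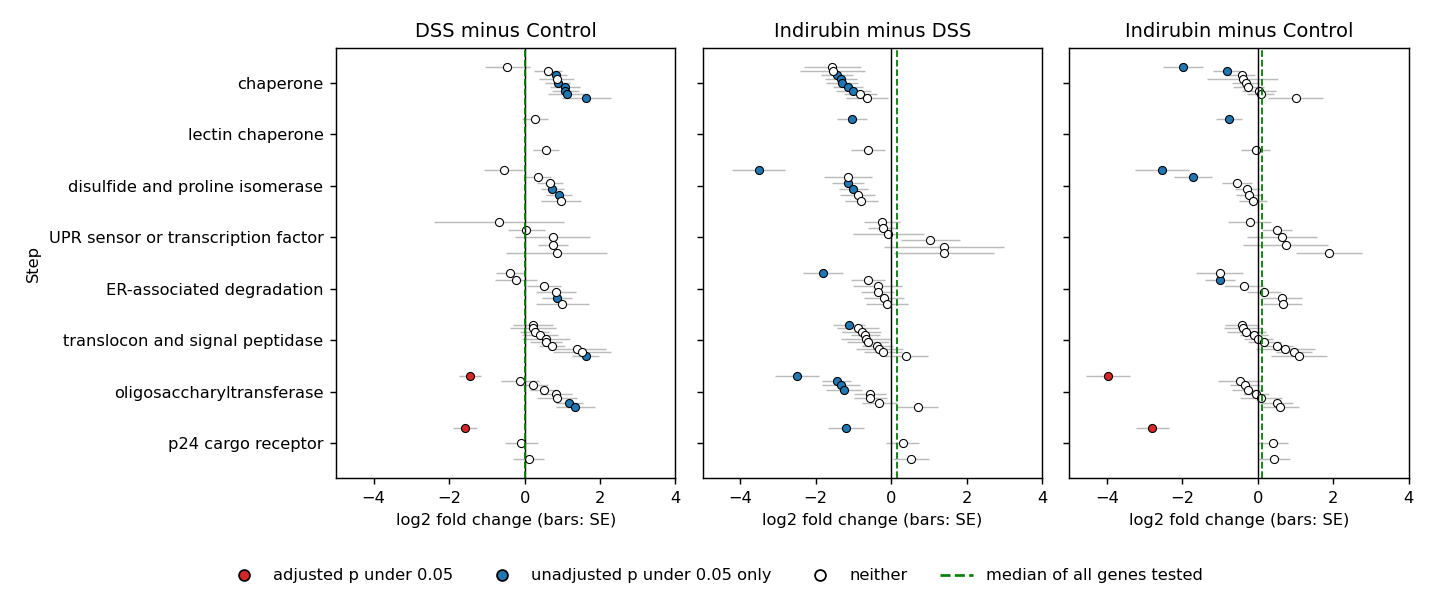
Each point is the log2 fold change of 1 of the 51 genes that was tested, with its standard error, by step (rows) and comparison (panels). Red marks an adjusted p under 0.05, blue an unadjusted p under 0.05 only, and the dashed line the median of all genes tested. Chaperones and isomerases sit right of 0 in DSS minus Control except for Dnajb9 and Fkbp2, and all of them left of 0 in Indirubin minus DSS.

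The chaperones as a step were higher in DSS than in Control for 8 of 9 genes, with a median of 0.87, and lower in Indirubin than in DSS for 9 of 9, with a median of -1.31. Hspa5 encodes BiP, the ER Hsp70 that binds unfolded chains and holds the sensors inactive (chr2:34661982-34667559, plus strand, build GRCm39). It measured 109, 101 and 132 CPM in Control, 186, 141 and 291 CPM in DSS and 69.8, 73.3 and 106 CPM in Indirubin. Each DSS library stood above the Control and Indirubin libraries, and Indirubin-3 lay among the Control values. The log2 fold change was 0.87 (SE 0.32) for DSS against Control, -1.31 (SE 0.43) for Indirubin against DSS and -0.43 (SE 0.36) for Indirubin against Control, and none of the 3 passed, with adjusted p-values of 0.46, 0.477 and 0.671 by edgeR's quasi-likelihood test. Hsp90b1, which encodes GRP94, the ER Hsp90 for integrins and secreted clients, measured 79.4, 62.7 and 54.6 CPM in Control, 108, 91.6 and 144 CPM in DSS and 45.2, 43.4 and 66.96 CPM in Indirubin. The DSS libraries again stood above all others, while Control and Indirubin overlapped. Its log2 fold changes were 0.84 (SE 0.30), -1.14 (SE 0.40) and -0.31 (SE 0.36) in the same order of comparisons. Manf, an ER protein that can be secreted, measured 16.1, 12.3 and 10.96 CPM in Control, 20.7, 24.99 and 35.9 CPM in DSS and 6.43, 13.8 and 11.9 CPM in Indirubin. DSS did not overlap either group, with log2 fold changes of 1.08 (SE 0.35) against Control and -1.33 (SE 0.43) for Indirubin against DSS. Manf lies over Dcaf1 on the opposite strand and Rbm15b on its own, whose counts came to 14.1% and 12.6% of its own, and whether the counting used strand is not given in the sources used here.

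Dnajc3, the ER J-protein P58IPK that acts with BiP, measured 18.5, 13.2 and 16.6 CPM in Control, 21.7, 22.7 and 56.1 CPM in DSS and 18.5, 13.4 and 18.3 CPM in Indirubin. DSS-3 was far above DSS-1 and DSS-2, and these were above every Control and Indirubin library, for log2 fold changes of 1.07 (SE 0.40) and -1.0003 (SE 0.45). Without DSS-3 Dnajc3 differed by 0.53 between DSS and Control. Hyou1, a large Hsp70-like nucleotide exchange factor for BiP, measured 34.2, 22.9 and 23.9 CPM in Control, 40.3, 23.04 and 58.9 CPM in DSS and 14.5, 14.3 and 16.2 CPM in Indirubin. The Indirubin libraries lay below the other 6, and DSS-2 lay among the Control libraries. Hyou1 differed by -1.44 (SE 0.42) between Indirubin and DSS and by -0.82 (SE 0.35) between Indirubin and Control. Dnajb9 (ERdj4), a J-protein that delivers clients for degradation, did not follow the other chaperones. It measured 11.1, 7.75 and 10.2 CPM in Control, 4.27, 2.304 and 14.3 CPM in DSS and 1.65, 3.77 and 1.64 CPM in Indirubin. DSS-1 and DSS-2 lay below every Control library and DSS-3 above all, and the Indirubin libraries lay below every Control library, at a log2 fold change of -1.98 (SE 0.54) and an adjusted p of 0.136 by edgeR's quasi-likelihood test, while DESeq2's Wald test called it. The remaining chaperones were Sdf2l1, a partner of ER J-proteins, at 1.64 (SE 0.66) in DSS against Control, the J-protein Dnajb11 at 0.85 (SE 0.47) and the BiP cofactor Creld2 at 1.14 (SE 0.53). In Indirubin against DSS they stood at -0.63, -0.81 and -1.55 (log2), and Creld2 had 0 counts in Indirubin-1.

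The promoters of the genes were searched for elements known from the UPR. ATF6 and the CCAAT-binding factor NF-Y together bind the ER stress response element (ERSE), whose letters are CCAAT followed after 9 bases by CCACG. The RefSeq promoter table (build GRCm38.p6, 250 bases before to 50 after each gene start) held 42 of the 51 genes, and its bases after the start occurred in a transcript of the gene on the same strand for 39 of the 42. ERSE was found on either strand in 9 of the 42 (21.4%): Hspa5, Hsp90b1, Dnajc3, Creld2, Calr, Canx, Pdia6, Syvn1 and Derl3. Of all genes in the table, 37 of 27025 (0.137%) held it. The 51 genes were chosen by name as chaperone, UPR and related genes and the element is one known from the UPR. The contrast of the shares is therefore a description and no test of enrichment. The related ERSE-II, ATTGG followed after 1 base by CCACG, stood in Herpud1 and Dnajb11 and in 12 of the 27025 genes (0.044%). The UPRE letters TGACGTGG stood in 193 of the 27025 genes (0.714%) and in none of the 42, which says only that these letters are not in this window. The stretches around the matches are shown for Hspa5, for the 3 further genes with ERSE and the smallest p between Indirubin and DSS, and for Herpud1, with the parts of the element on either side of its spacer in capitals, 5′ to 3′ on the strand of the gene.
Hspa5, chr2:34772005-34772063 (plus strand): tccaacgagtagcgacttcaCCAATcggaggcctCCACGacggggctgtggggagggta
Syvn1, chr19:6046512-6046570 (plus strand): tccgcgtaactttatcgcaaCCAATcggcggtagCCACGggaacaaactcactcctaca
Hsp90b1, chr10:86705513-86705676 (minus strand): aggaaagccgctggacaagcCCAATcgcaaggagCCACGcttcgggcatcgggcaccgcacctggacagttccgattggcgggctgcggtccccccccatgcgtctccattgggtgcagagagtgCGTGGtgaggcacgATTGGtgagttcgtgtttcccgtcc
Pdia6, chr12:17266471-17266529 (plus strand): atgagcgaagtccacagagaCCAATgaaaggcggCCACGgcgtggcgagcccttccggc
Herpud1, ERSE-II, chr8:94386357-94386407 (plus strand): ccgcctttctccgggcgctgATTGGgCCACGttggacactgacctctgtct

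Hsp90b1 carries 2 matches, 1 on each strand, and the other 4 stretches carry 1 each on the strand of the gene. The single match of Hspa5 covers bases 65 to 47 before the start. Of the 9 genes with ERSE, 8 were tested. All 8 were higher in DSS than in Control (log2 0.27 to 1.14, median 0.85), 5 of them at an unadjusted p under 0.05. All 8 were lower in Indirubin than in DSS (log2 -1.80 to -0.62, median -1.14), 6 of them at an unadjusted p under 0.05. The 31 genes with a promoter in the table but neither element had 30 tested in DSS against Control, 22 higher and 8 lower with a median of 0.54, of which 4 higher and 2 lower were at an unadjusted p under 0.05. In Indirubin against DSS 31 of these were tested, 5 higher and 26 lower with a median of -0.61, of which 7 lower were at an unadjusted p under 0.05. The 9 genes with no promoter in the table were higher in DSS than in Control for 8 of 9 (median 0.62, 2 at an unadjusted p under 0.05) and lower in Indirubin than in DSS for 7 of 9 (median -0.60, 3 at an unadjusted p under 0.05). Over all genes tested, 3.48% were higher in DSS than in Control and 3.22% lower in Indirubin than in DSS at that threshold. The difference between genes with and without the element was not tested, and a match is a run of letters, not a measured binding site.

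Calr and Canx encode calreticulin and calnexin, the lectin chaperones that retain monoglucosylated glycoproteins. Calr measured 159.5, 172 and 108 CPM in Control, 150.3, 167 and 324 CPM in DSS and 105, 126 and 185 CPM in Indirubin. DSS-1 and DSS-2 lay inside the Control range and DSS-3 well above all 8 others. Its log2 fold changes were 0.57 (SE 0.34), -0.62 (SE 0.45) and -0.05 (SE 0.39) for DSS against Control, Indirubin against DSS and Indirubin against Control, and without DSS-3 the first 2 were 0.19 and -0.20. Canx measured 46.9, 49.9 and 31.9 CPM in Control, 32.00, 46.96 and 72.8 CPM in DSS and 22.2, 26.1 and 25.8 CPM in Indirubin. The Indirubin libraries lay below the other 6, of which Control-3 and DSS-1 were the lowest. Canx differed by -1.03 (SE 0.41) between Indirubin and DSS and by -0.77 (SE 0.35) between Indirubin and Control, neither past an adjusted p of 0.05.

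**Figure D4:**
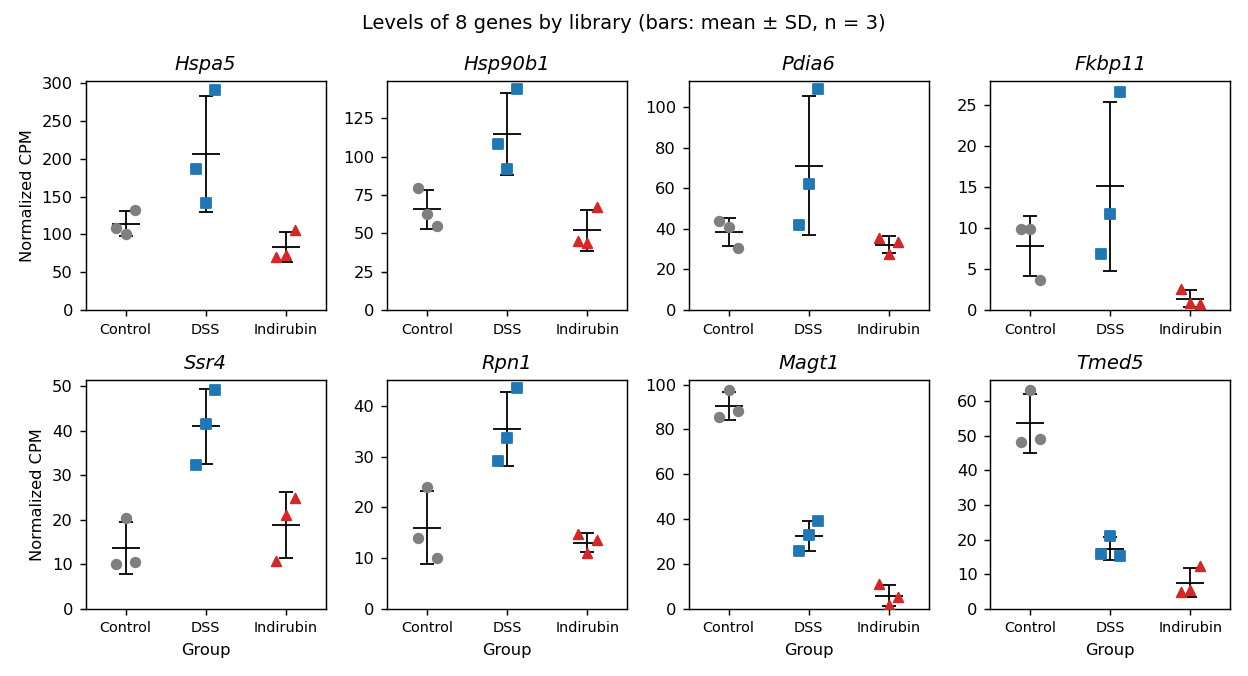
Normalized CPM of 8 genes in each library (points, n = 3 per group), with the group mean and SD as a bar. Hspa5, Hsp90b1, Ssr4 and Rpn1 stand highest in the DSS libraries, and Magt1 and Tmed5 step down from Control to DSS to Indirubin without overlap between groups.

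Of the disulfide and proline isomerases, 5 of 6 were higher in DSS than in Control and 6 of 6 lower in Indirubin than in DSS, with medians of 0.71 and -1.07. Pdia4 (ERp72), which oxidizes and reshuffles disulfides, measured 24.7, 28.5 and 27.5 CPM in Control, 34.02, 42.2 and 55.3 CPM in DSS and 17.6, 24.7 and 23.2 CPM in Indirubin. DSS stood above both groups, and Indirubin-2 and Control-1 were level. Its log2 fold changes were 0.73 (SE 0.31) and -1.0026 (SE 0.38). Pdia6 (ERp5), another disulfide isomerase of the ER lumen, measured 43.8, 40.7 and 30.4 CPM in Control, 41.96, 62.2 and 109 CPM in DSS and 35.4, 27.5 and 33.6 CPM in Indirubin. DSS-1 lay within the Control range, yet every DSS library was above every Indirubin library, with log2 fold changes of 0.91 (SE 0.35) and -1.14 (SE 0.43). Without DSS-3 they were 0.51 and -0.70. P4hb and Pdia3 differed by 0.68 (SE 0.35) and 0.34 (SE 0.34) between DSS and Control and by -0.79 (SE 0.44) and -0.89 (SE 0.47) between Indirubin and DSS.

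Fkbp11, a proline isomerase of secretory cells, showed the lowest fold change of the 51 genes between Indirubin and DSS. It measured 9.92, 9.87 and 3.65 CPM in Control, 6.88, 11.7 and 26.6 CPM in DSS and 2.57, 0.901 and 0.691 CPM in Indirubin. The 3 Indirubin libraries lay below the 6 others, with 14, 11 and 8 counts, and Control and DSS overlapped. The log2 fold change was -3.52 (SE 0.70) against DSS and -2.53 (SE 0.71) against Control, with adjusted p-values of 0.274 and 0.141 by edgeR's quasi-likelihood test. Without Indirubin-1 both passed, at -4.32 (adjusted p = 0.0129) and -3.38 (adjusted p = 0.024), and leaving out other libraries gave adjusted p-values of up to 0.903 and 0.399. Fkbp2, another proline isomerase of the ER lumen, measured 13.04, 29.1 and 20.2 CPM in Control, 4.27, 13.7 and 23.7 CPM in DSS and 9.18, 2.54 and 7.17 CPM in Indirubin. Its Indirubin libraries lay below every Control library, at -1.71 (SE 0.50), but overlapped DSS, since DSS-1 stood at 4.27 CPM.

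Of the UPR sensors and transcription factors, 4 of 5 tested were higher in DSS than in Control, with a median of 0.74. Of the same 5 genes, 2 were higher in Indirubin than in DSS, with a median of -0.08, and 4 were higher in Indirubin than in Control, with a median of 0.64. Eif2ak3 passed the filter on low counts only in Indirubin against DSS and stands outside these counts. None was at an unadjusted p under 0.05 in any comparison, and the difference from the chaperones was not tested. Xbp1, the transcription factor activated by IRE1, measured 15.6, 13.9 and 7.79 CPM in Control, 14.7, 24.3 and 22.2 CPM in DSS and 14.3, 16.7 and 21.1 CPM in Indirubin. The groups overlapped, with log2 fold changes of 0.75 (SE 0.39), -0.23 (SE 0.39) and 0.51 (SE 0.39). Atf4, the translationally controlled factor downstream of PERK, measured 27.8, 11.3 and 5.84 CPM in Control, 17.2, 10.8 and 17.1 CPM in DSS and 5.88, 19.5 and 12.3 CPM in Indirubin. Control-1 was the highest library and Control-3 the lowest, so Control spanned the values of both other groups. Its log2 fold changes were 0.04 (SE 0.50), -0.25 (SE 0.48) and -0.22 (SE 0.58). Atf6, the sensor that is cleaved to a transcription factor, measured 0.195, 2.11 and 0.974 CPM in Control, 0.948, 1.77 and 3.11 CPM in DSS and 3.12, 3.85 and 5.098 CPM in Indirubin. The Indirubin libraries stood above the other 6, Indirubin-1 by a small margin over DSS-3, and the log2 fold change was 1.89 (SE 0.88) against Control (unadjusted p = 0.0524) and 1.04 (SE 0.78) against DSS.

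Ddit3 (CHOP), a proapoptotic factor downstream of ATF4, was near the floor at 0, 2.11 and 2.68 CPM in Control, 0, 1.77 and 1.19 CPM in DSS and 0.918, 3.36 and 3.46 CPM in Indirubin. Control-1 and DSS-1 had 0 counts, and the groups overlapped. Its log2 fold changes carried standard errors above 1, at -0.67 (SE 1.72), 1.40 (SE 1.32) and 0.75 (SE 1.13), so no difference was detectable at this depth. Ddit3 shares 68 bases with Mars1 on the other strand, which had 375 counts beside 132 for Ddit3. Ern1 measured 0.778, 3.699 and 1.71 CPM in Control, 0.711, 5.49 and 3.93 CPM in DSS and 6.98, 1.48 and 1.296 CPM in Indirubin, with Indirubin-1 the highest and the groups overlapping. Eif2ak3 had counts in 6 of 9 libraries, at most 1.38 CPM, and differed by 1.40 (SE 1.58) between Indirubin and DSS.

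In ER-associated degradation, 4 of 6 tested genes were higher in DSS than in Control and 6 of 6 lower in Indirubin than in DSS, with medians of 0.67 and -0.35. Herpud1, which gathers the ubiquitin ligase complex, measured 8.76, 12.7 and 10.7 CPM in Control, 15.5, 26.6 and 14.8 CPM in DSS and 5.51, 15.9 and 27.99 CPM in Indirubin. DSS stood above Control, while Indirubin-1 was the lowest and Indirubin-3 the highest of the 9 libraries. The log2 fold changes were 0.87 (SE 0.39), -0.19 (SE 0.54) and 0.66 (SE 0.52). Syvn1 (HRD1), the ligase itself, measured 7.98, 5.11 and 2.68 CPM in Control, 10.8, 9.57 and 6.67 CPM in DSS and 2.39, 2.46 and 2.85 CPM in Indirubin. The Indirubin libraries lay below all DSS libraries, at -1.80 (SE 0.52), and Control-3 lay among the Indirubin values. Syvn1 overlaps 91 bases of Mrpl49 on the other strand, whose counts came to 50.1% of its own. Sel1l, the adaptor that steadies HRD1, measured 13.6, 20.3 and 20.7 CPM in Control, 10.4, 11.5 and 19.01 CPM in DSS and 8.997, 6.47 and 11.4 CPM in Indirubin. Each Indirubin library lay below each Control library, while DSS overlapped both groups, with -0.9955 (SE 0.39) for Indirubin against Control and -0.39 (SE 0.38) for DSS against Control. Edem1, a mannosidase-like factor for misfolded glycoproteins, and the Derlins Derl1 and Derl2 differed by -0.35, -0.36 and -0.10 (log2) between Indirubin and DSS.

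The translocon and signal peptidase genes were higher in DSS than in Control for 10 of 10, with a median of 0.57, and lower in Indirubin than in DSS for 9 of 10, with a median of -0.63. Their median deviation from the 9-library mean was 0.20, -0.03 and 1.02 (log2) in DSS-1, -2 and -3, -0.19, 0.03 and -0.52 in Control and 0.17, -0.32 and 0.03 in Indirubin, so DSS-3 alone stood apart and DSS-2 lay among the other groups. Ssr4, the delta subunit of the translocon-associated protein complex (chrX:72830634-72834436, plus strand, GRCm39), measured 10.1, 20.4 and 10.5 CPM in Control, 32.2, 41.5 and 49.1 CPM in DSS and 10.7, 20.98 and 24.97 CPM in Indirubin. All DSS libraries stood above all others, and Indirubin overlapped Control. The log2 fold change was 1.62 (SE 0.36) for DSS against Control, with an adjusted p of 0.0713 by edgeR's quasi-likelihood test, and -1.11 (SE 0.42) for Indirubin against DSS. Ssr4 passed an adjusted p of 0.05 by DESeq2's Wald test (0.00183), with no filter on low counts (0.0166) and with at least 10 counts in every library (0.0119). Sec61a1, the channel subunit itself, measured 6.23, 11.1 and 10.2 CPM in Control, 13.4, 5.32 and 16.7 CPM in DSS and 14.5, 6.64 and 9.68 CPM in Indirubin. DSS-2 was the lowest library and DSS-3 the highest, the groups overlapped, and the log2 fold changes were 0.40 (SE 0.48), -0.22 (SE 0.51) and 0.17 (SE 0.44), the first 2 of which were 0.10 and 0.11 without DSS-3. Sec61b, its small beta subunit, measured 3.697, 9.69 and 3.897 CPM in Control, 8.18, 2.304 and 14.5 CPM in DSS and 9.91, 13.5 and 9.68 CPM in Indirubin. DSS-2 was again the lowest, and Control-2 lay among the Indirubin values, at 0.97 (SE 0.48) for Indirubin against Control.

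Of the other translocon members, Ssr3 (TRAP gamma) was higher in each DSS library than in any other library, at 0.72 (SE 0.34) against Control and -0.68 (SE 0.38) for Indirubin against DSS. Sec61g, the gamma subunit, differed by 1.53 (SE 0.77) between DSS and Control, with 1 count in Control-3. Ssr1 and Ssr2, further subunits of the same complex, differed by 0.27 and 0.22 (log2) between DSS and Control. The signal peptidase genes Spcs1, Spcs2 and Spcs3 differed by 1.40, 0.57 and 0.22 there, and by -0.31, -0.89 and -0.60 between Indirubin and DSS.

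The oligosaccharyltransferase transfers the preassembled glycan to asparagine, and its genes held both directions. Rpn1 (ribophorin I), a subunit that receives clients, measured 14.01, 23.96 and 9.99 CPM in Control, 29.2, 33.7 and 43.4 CPM in DSS and 14.7, 10.9 and 13.5 CPM in Indirubin. DSS stood above both other groups, with log2 fold changes of 1.19 (SE 0.36) against Control and -1.44 (SE 0.38) for Indirubin against DSS, at adjusted p-values of 0.283 and 0.433 by edgeR's quasi-likelihood test. Ostc, a subunit that docks the complex at the translocon, measured 6.81, 2.82 and 4.14 CPM in Control, 10.9, 7.798 and 15.7 CPM in DSS and 3.86, 5.41 and 5.098 CPM in Indirubin. DSS again stood above both groups, at 1.34 (SE 0.51) and -1.26 (SE 0.47). Ddost, the subunit OST48, measured 9.34, 17.8 and 9.499 CPM in Control, 14.5, 16.5 and 32.9 CPM in DSS and 21.7, 10.7 and 19.4 CPM in Indirubin. The groups overlapped, at 0.83 (SE 0.41), -0.31 (SE 0.45) and 0.52 (SE 0.42), the first 2 of which were 0.415 and 0.14 without DSS-3. Rpn2 and Dad1, structural subunits, differed by -0.56 and -1.34 (log2) between Indirubin and DSS, and the catalytic subunits Stt3a and Stt3b by -0.55 and 0.71.

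Magt1, the oxidoreductase subunit of the complex that carries STT3B (chrX:105011690-105055512, minus strand, GRCm39), went the other way. It measured 85.4, 97.4 and 88.4 CPM in Control, 25.6, 32.8 and 39.03 CPM in DSS and 10.8, 1.72 and 5.01 CPM in Indirubin. The 3 groups did not overlap, with Control highest and Indirubin lowest. Magt1 fell by 1.44 (log2, SE 0.29) in DSS against Control, with an adjusted p of 0.0416, and by 3.96 (SE 0.58) in Indirubin against Control, with an adjusted p of 0.0277, by edgeR's quasi-likelihood test. Between Indirubin and DSS the log2 fold change was -2.50 (SE 0.58) with an adjusted p of 0.397, and it passed without Indirubin-1 (-3.37, adjusted p = 0.00913) but in no other fit that left out 1 library (up to 0.918). It rests on counts of 59, 21 and 58 in Indirubin, 216, 185 and 427 in DSS and 439, 553 and 363 in Control. Stt3b, the catalytic partner of Magt1, measured 8.76, 7.05 and 4.87 CPM in Control, 4.62, 5.49 and 8.59 CPM in DSS and 6.06, 6.56 and 17.9 CPM in Indirubin and overlapped between all groups.

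Tmed5, a p24 receptor that recruits cargo into export vesicles (chr5:108254232-108280486, minus strand, GRCm39), was the other gene to fall. It measured 48.2, 63.2 and 49.2 CPM in Control, 15.8, 21.1 and 15.3 CPM in DSS and 4.77, 5.41 and 12.4 CPM in Indirubin. The 3 groups did not overlap, in the same order as Magt1, Control above DSS above Indirubin. Tmed5 fell by 1.58 (log2, SE 0.32) in DSS against Control, with an adjusted p of 0.0403, and by 2.79 (SE 0.45) in Indirubin against Control, with an adjusted p of 0.0288, by edgeR's quasi-likelihood test. Between Indirubin and DSS it differed by -1.20 (SE 0.47), with an adjusted p of 0.567. Tmed5 shares 2639 bases with Mtf2 on the other strand, whose counts came to 4.17% of its own. The p24 receptors Tmed2 and Tmed10 measured 20.4, 12.5 and 10.7 CPM in Control, 16.7, 6.91 and 16.4 CPM in DSS and 11.8, 19.4 and 26.6 CPM in Indirubin, and 11.3, 25.4 and 13.2 CPM in Control, 18.2, 9.75 and 24.04 CPM in DSS and 16.5, 20.3 and 27.4 CPM in Indirubin, respectively. Both overlapped between all groups, with log2 fold changes of 0.44 and 0.40 for Indirubin against Control.

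Both calls in DSS against Control were lost when any 1 of the 6 libraries was left out, with adjusted p-values of 0.0718 to 0.236 for Tmed5 and 0.0923 to 0.222 for Magt1, while the log2 fold changes stayed between -1.78 and -1.47 and between -1.56 and -1.32. They were also lost with the replicate number as a block (0.116 and 0.145), with all 9 libraries in one fit (0.176 and 0.418) and with scaling by library size only (0.399 and 0.514). In Indirubin against Control, Magt1 passed in 1 and Tmed5 in 2 of the 6 fits that left out 1 library: both without Indirubin-1, and Tmed5 without Indirubin-3. Without Indirubin-2 and Indirubin-3, which leaves Indirubin-1 alone and no spread within Indirubin, the log2 fold changes were -3.07 for Magt1 and -3.49 for Tmed5.

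A further 166 genes of the same pathway were followed beside the 51, from dolichol-linked glycan assembly to COPII coats. In DSS against Control 120 were tested, 79 higher and 41 lower with a median of 0.22, and in Indirubin against DSS 133 were tested, 51 higher and 82 lower with a median of -0.21. None of them passed an adjusted p of 0.05 by edgeR's quasi-likelihood test in any comparison. At an unadjusted p under 0.05, 4 were higher and 1 lower in DSS against Control, 2 higher and 15 lower in Indirubin against DSS, and 4 higher and 6 lower in Indirubin against Control. These were 3.33% and 0.833%, 1.5% and 11.3%, and 3.23% and 4.84% of the other pathway genes tested. The shares over all genes tested were 3.48% and 4.05%, 4.45% and 3.22%, and 7.45% and 6.38%. The share lower in Indirubin than in DSS was above that of all genes tested, and the other 5 were below theirs. Some of the higher genes passed the filter on low counts only in comparisons with Indirubin. Over the 115 genes tested in all 3 comparisons, 3 were higher and 1 lower in DSS against Control. In Indirubin against DSS 1 was higher and 15 lower, and in Indirubin against Control 1 was higher and 6 lower.

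The 3 genes of smallest p that were higher in DSS than in Control were the ER Hsp70-like Hspa13 at 1.47 (SE 0.48), the translation factor Eif2s1, the target of PERK, at 1.78 (SE 0.73) and the ER peroxiredoxin Prdx4 at 1.42 (SE 0.59). The 3 lower ones were Erlin1 at -1.56 (SE 0.70), Aup1 at -0.67 (SE 0.35), both of ER-associated degradation, and the COPII cargo adaptor Sec24a at -1.10 (SE 0.57). In Indirubin against DSS the lower ones were Prdx4 at -2.30 (SE 0.61), the cargo receptor Surf4 at -1.23 (SE 0.39) and the glucosidase II subunit Ganab at -1.30 (SE 0.42). The higher ones were the transcription factor Cebpb at 1.45 (SE 0.62), the p24 receptor Tmed1 at 3.70 (SE 1.64) and Ppp1r15a (GADD34), the phosphatase subunit that reverses PERK signalling, at 2.35 (SE 1.12). In Indirubin against Control Cebpb, Ppp1r15a and Tmed1 stood at 1.07 (SE 0.36), 2.92 (SE 0.99) and 3.18 (SE 1.37), and Erlin1, Aup1 and the cargo lectin Lman2 at -2.23 (SE 0.72), -1.07 (SE 0.35) and -1.26 (SE 0.41). Ppp1r15a and Tmed1 did not pass the filter on low counts in DSS against Control and were tested elsewhere only through the Indirubin libraries. Their Control means were near the floor, at 0.518 and 0.217 CPM in the fit of Indirubin against Control.

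Gene length was followed because short and long transcripts can differ with RNA quality. Over the tested members of the 51, none of which is shorter than 1000 bases, Spearman's rho between log2 fold change and log10 gene length was -0.246 (49 genes) for DSS against Control, 0.056 (50 genes) for Indirubin against DSS and -0.235 (49 genes) for Indirubin against Control. Over all genes tested it was -0.099, 0.176 and 0.083. These are correlations across genes of the same libraries, which are not independent replicates.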

How the data were processed

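Liver RNA (RNeasy Plus Micro Kit, 400 ng per library) was sequenced on a DNBSEQ platform. The deposited table holds, per gene and library, raw read counts and FPKM made by the authors. The build, per the submitters' processing notes, is GRCm39, and the aligner, the counter and its use of strand are not given in the sources used here. The deposited FPKM values were used only for a check: within each library 1 size explained 100% of values within 1%, but these sizes (4192007 to 13153689) are not the count totals (6514863 to 7944684), so the FPKM were scaled by something other than the counts' totals, not given in the sources used here. Counts were tested as deposited, mitochondrial genes included, in R 4.3.3 with edgeR 4.0.16 (filterByExpr defaults, trimmed mean of M values, quasi-likelihood test, 3 against 3 libraries, Benjamini-Hochberg over all genes tested). An adjusted p under 0.05 counted as a call. DESeq2 1.42.0, other scalings, other filters, all 9 libraries in one fit, mitochondrial genes left out, a replicate block and leaving out each library were alternatives. The scripts were tested on simulated data. Columns of the authors' own comparisons (fold changes and p-values) were not used.

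Of the other pathway and marker genes, 3 symbols were matched through aliases. Ddit3 has 2 rows, of which the one with counts was used. Figures were drawn with matplotlib, and the deviations in the heat map use log2 with a pseudocount of 1. The 51 genes and all lists were chosen with earlier results of these data known. Per-library values are given for Hspa5, Hsp90b1, Calr, Pdia4, Xbp1, Atf4, Ddit3, Herpud1, Sec61a1 and Ddost and for the 10 members of smallest p in each comparison, beside a few members named after their values were seen (Ern1, Stt3b, Tmed2, Tmed10). Of the other pathway genes, the 3 of smallest p each way are named where none passed. Libraries with the same replicate number did not deviate together (r between -0.02 and 0.02 in all comparisons), so the numbers were not taken as pairs. No 2 libraries agreed within sampling noise.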

Additional observations from a re-analysis of the deposited data

How the results depend on the processing

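The direction relative to all genes tested held for the median of the 51 genes under each alternative run. With scaling by library size only, DSS against Control gave 27 genes higher (55.1%, beside 11.3% of all genes tested) and 1 gene lower (2.04%, beside 0.949%) at unadjusted p-values under 0.05. It gave 0 lower by adjusted p (beside 0.0668%), a median of 1.39 and Ddit3 at 0.0035. Indirubin against DSS gave 2 lower at an unadjusted p (4%, beside 1.13%), Xbp1 at 0.11, Atf4 at 0.17 and Herpud1 at 0.32. Indirubin against Control gave 12 higher (24.5%, beside 26.2% of all genes tested) and 3 lower (6.12%, beside 1.33%) at an unadjusted p, 1 lower at an adjusted p (beside 0.211%), 2 other pathway genes higher at an adjusted p (beside 3.09%), a median of 0.89, Hspa5 at 0.59, Hsp90b1 at 0.68, Calr at 0.96, Pdia4 at 0.77, Atf4 at 0.90, Hyou1 at 0.16 and Canx at 0.23. DESeq2's Wald test called 1 gene higher and 2 lower in DSS against Control (beside 0.735% and 1.18% of all genes tested) and 2 lower in Indirubin against DSS (beside 0.296%). In Indirubin against Control it called 4 lower (beside 2.11%), and 1 was higher at an unadjusted p under 0.05 (2.04%, beside 8.31%). Without a filter on low counts the calls were 1 higher and 2 lower (beside 0.233% and 0.444%), 2 lower (0.226%) and 4 lower (0.821%) in the same order, and 1 other pathway gene was lower in Indirubin than in DSS. Requiring 10 counts in every library, which drops genes that fell, gave 1 call higher in DSS against Control (beside 0.872%), and in Indirubin against Control 1 higher (2.56%, beside 8.61%) and 4 lower (10.3%, beside 10.5%) at an unadjusted p and Calr at 0.038. All 9 libraries in one fit gave 0 lower calls in DSS against Control (beside 0.0515% of all genes tested). The replicate block also gave 0 there (beside 0.281%), and 1 gene higher at an unadjusted p in Indirubin against Control (2.04%, beside 6.03%); the numbers do not pair the libraries. Leaving out Indirubin-2 and Indirubin-3, chosen after seeing the data, turned Ddit3 (-0.090), Sec61a1 (0.29) and Ddost (0.022) against DSS and Ddit3 (-0.79) and Herpud1 (-0.97) against Control. The cause of these changes was not tested.

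Leaving out 1 library in turn, DSS against Control gave 6 to 16 genes higher at an unadjusted p (all genes tested 2.02% to 3.27%), 0 to 0 lower at an adjusted p (0.0818% to 0.461%) and Atf4 from -0.37 to 0.81. Indirubin against DSS gave 0 to 2 lower at an adjusted p (0% to 0.703%), 9 to 20 lower at an unadjusted p (1.48% to 5.35%), Herpud1 from -0.80 to 0.11, Sec61a1 from -0.64 to 0.11 and Ddost from -0.62 to 0.14. Indirubin against Control gave 0 to 3 higher (5.06% to 9.54%) and 5 to 8 lower (3.35% to 8.8%) at an unadjusted p, 0 to 4 lower at an adjusted p (0.01% to 3.29%), 0 to 3 other pathway genes lower at an adjusted p, Atf4 from -0.68 to 0.55, Calr from -0.32 to 0.039 and Sec61a1 from -0.28 to 0.41. Of the values of named genes, 741 kept their direction and side of the threshold, 31 turned, 28 lost and 15 gained a call. Most of the 741 were of genes not called in the first place. The losses all fell on the calls of Magt1 and Tmed5, 18 in DSS against Control and 10 in Indirubin against Control. With 569044 to 2132208 nuclear counts per library, genes such as Ddit3, Eif2ak3 and Derl3 were too thinly counted for their differences to be measured.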

Other observations

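The 166 other ER genes are described here by class, over the 115 of them that passed the filter on low counts in every comparison. Of all genes tested, 50.6% were higher in DSS than in Control, 43.2% lower in Indirubin than in DSS and 55.5% higher in Indirubin than in Control. Medians are of log2 fold changes. The other disulfide and proline isomerases were higher in DSS than in Control for 11 of 12 (median 0.45) and lower in Indirubin than in DSS for 10 (median -1.11). Glycan trimming and quality control genes were higher in DSS than in Control for 8 of 10 (median 0.30) and lower in Indirubin than in DSS for 7 (median -0.78). Genes of dolichol-linked glycan assembly, which builds the glycan that the oligosaccharyltransferase transfers, were higher in DSS than in Control for 4 of 10 (median -0.04) and lower in Indirubin than in DSS for 5 (median -0.06). Other UPR and integrated stress response genes were higher in DSS than in Control for 3 of 7 (median -0.18) and lower in Indirubin than in DSS for 5 (median -0.20), and 4 were higher in Indirubin than in Control (median 0.39). The sign of the second median depended on the set: of all 12 of this class tested in Indirubin against DSS, 7 were higher and 5 lower (median 0.31). Other chaperones were higher in DSS than in Control for 5 of 9 (median 0.07) and lower in Indirubin than in DSS for 7 (median -0.23). Other genes of ER-associated degradation were higher in DSS than in Control for 10 of 18 (median 0.02) and lower in Indirubin than in DSS for 11 (median -0.21). Other translocation and signal recognition genes were higher in DSS than in Control for 13 of 20 (median 0.33) and lower in Indirubin than in DSS for 12 (median -0.24). The other oligosaccharyltransferase genes were higher in DSS than in Control for 3 of 3 (median 0.36) and lower in Indirubin than in DSS for 1 (median 0.28). Cargo export and retrieval genes were higher in DSS than in Control for 19 of 26 (median 0.23) and lower in Indirubin than in DSS for 19 (median -0.30). The differences between classes were not tested.

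The remaining marker lists had the following levels. The 8 neutrophil markers summed to 1.17 to 3.65 CPM in Control, 11.5 to 17.4 in DSS and 27.9 to 245 in Indirubin, without overlap between groups. Macrophage markers summed to 112 to 194 CPM in Control, 152 to 172 in DSS and 173 to 267 in Indirubin, so Control overlapped both other groups. Endothelial markers summed to 24.8 to 45.8 CPM in DSS and 50.9 to 69.2 in Indirubin, beside 38 to 70.8 in Control. Stellate and fibroblast markers summed to 109 to 176.5 CPM in Control, 62.9 to 96.1 in DSS and 93.1 to 183 in Indirubin. Intestinal epithelial markers summed to 1.95 to 10.1 CPM in Control and 5.69 to 7.27 in DSS, and to 6.43, 8.60 and 40.7 in Indirubin-1, -2 and -3, so Indirubin-3 alone stood high. The part of these cell types in the levels of the 51 genes was not tested.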
